A study of Rattus norvegicus with 29 samples.

Results

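Fear conditioning without anaesthetic was compared with isoflurane alone in rat basolateral amygdala, using 10 of the 29 arrays of the study. The 10 arrays were chosen by their labels: 5 samples titled as fear conditioning and 5 titled as isoflurane, all taken 6 h after treatment. The conditioned group received conditioning and no isoflurane is named for it, and the isoflurane group received the anaesthetic and no conditioning is named for it. The difference therefore holds both what conditioning adds and what isoflurane adds, with opposite signs, and it does not use the 9 untreated baseline arrays. The remaining arrays, 5 after pain and 5 after conditioning under isoflurane, were normalized, filtered and fitted together with the 10 and the 9. They therefore share in every limma standard error and p. They also place a value, and the conditioned arrays are compared with each of these 2 groups. Strain, sex and age of the rats are not given in the sources used here. Rat numbers are given for the conditioned arrays but not for the isoflurane arrays, so nothing says that the isoflurane samples came from different animals, and p-values measure the spread between these samples. A fluorescent labelling kit is named for the isoflurane and baseline arrays and not for the conditioned arrays, and the sample numbers of the isoflurane arrays come later than those of the conditioned ones. Treatment and any difference in labelling or handling that follows those labels cannot be told apart.

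In auditory or contextual fear conditioning an animal learns that a signal or place predicts a shock, and neurons of the basolateral amygdala strengthen the synapses that carry the signal. Lasting memory needs new transcription: neuronal firing switches on immediate early transcription factors such as Fos and Egr1, and these together with CREB drive effector genes such as Bdnf, Arc and Vgf. Isoflurane is an inhaled anaesthetic that strengthens inhibition through GABA-A receptors and opens leak potassium channels, and given around training it can prevent the memory from forming. Immediate early transcripts usually peak well before the sampling time used here.

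No difference in median signal or in the ratios used for RNA quality was detected between the 2 groups, with 5 arrays against 5. The deposited signals were already scaled to a common trimmed mean on each array. Their medians therefore cannot show a difference in overall signal. The median deposited signal was 239.4 (SD 7.43, n = 5) after conditioning and 232.2 (SD 6.95, n = 5) after isoflurane (two-sided exact permutation p = 0.159, adjusted over 3 tests 0.477). The ratio of 3' to 5' probe signals, which grows as RNA degrades, was 1.194 (SD 0.112) and 1.164 (SD 0.0321) for Gapdh (exact permutation p = 0.627, adjusted 0.627). For beta-actin it was 1.545 (SD 0.268) and 1.67 (SD 0.413), with an exact permutation p of 0.595 (adjusted 0.627), and 0.0079 is the smallest p that 5 against 5 allows. Arrays of the same group correlated at 0.946 to 0.969 over the 9520 probe sets kept for testing, and arrays of different groups at 0.945 to 0.976. Slc17a7, the vesicular glutamate transporter of cortical-type projection neurons, averaged 11.68 after conditioning and 11.89 after isoflurane on the log2 scale, and its other probe set differed in the opposite direction. Penk, the enkephalin precursor made by striatal and central amygdala neurons, averaged 11.76 and 12.21, a difference of -0.45 that was -0.27 without conditioning replicate 2 and -0.75 without conditioning replicate 4. Conditioning replicate 2 stood apart from the other 4 conditioned arrays in several gene groups, with the highest astrocyte and the lowest neuropeptide and vesicle-protein values. Where leaving out 1 array moved the difference of a gene named by rule, above 0.1 in size, by over 1.5 times, the value or range without it is given, and many list medians are given in the same way.

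No transcript passed the test. The limma fit on 9520 probe sets called 0 of them (background 0%) at a Benjamini-Hochberg adjusted p under 0.05, and the lowest adjusted p was 0.0709. At an unadjusted p under 0.05 there were 494 probe sets, where 476 are the number chance alone gives; 230 stood higher after conditioning (2.42%) and 264 lower (2.77%). Without conditioning replicate 2 the higher count was 122; it was 349 without conditioning replicate 3 and 357 without isoflurane replicate 4, and the lower count was 169 without isoflurane replicate 1. For the median probe set the standard error was 0.14 and the half-width of the 95% confidence interval 0.29. Levels and differences are on a log2 scale, where a difference of 1 is a doubling, and every difference is conditioning minus isoflurane unless another is named. In 24 probe sets every conditioned array lay above every isoflurane array (0.252%), and in 32 every one lay below (0.336%). Chance alone separates the groups at a rate of 0.0079, the smallest exact permutation p, over both directions together. The 56 of 9520 found were fewer than that rate gives. A lack of overlap in a named gene is therefore a description and not evidence of a difference.

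**Figure D1:**
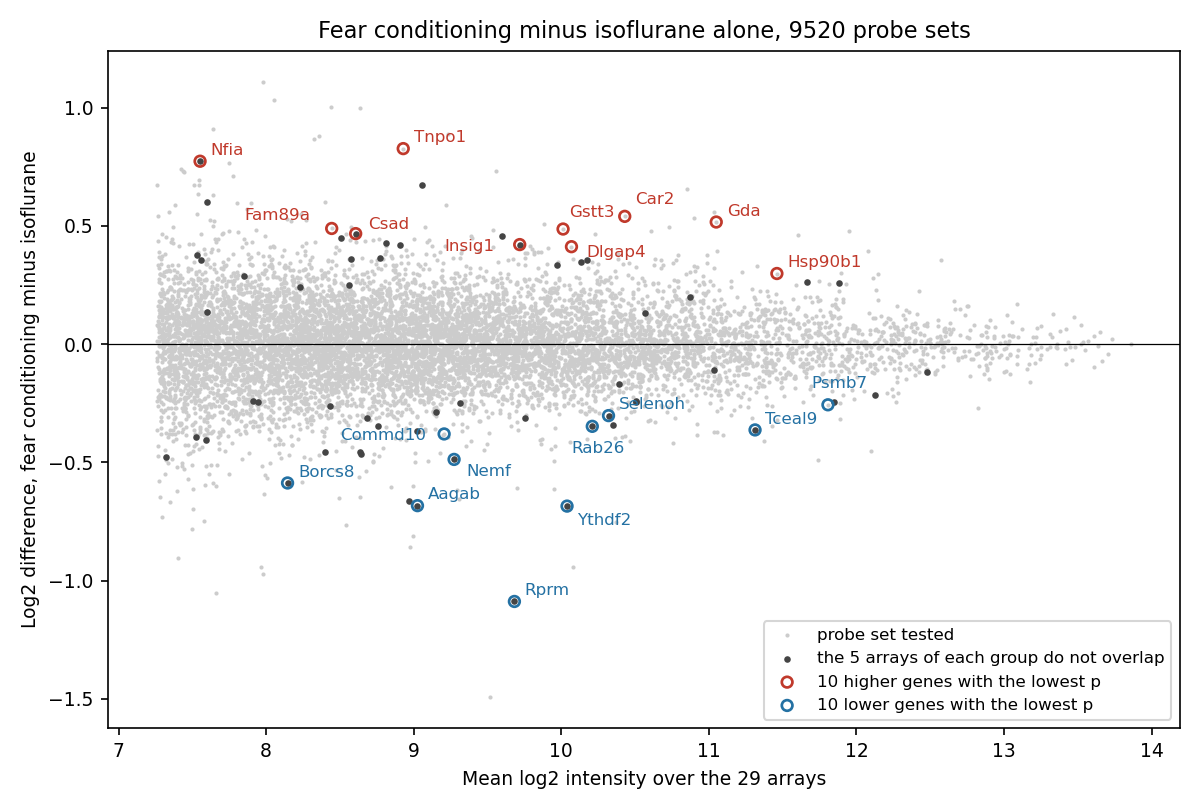
Log2 difference of fear conditioning minus isoflurane (vertical axis) against the mean log2 intensity over all 29 arrays (horizontal axis), 1 dot per tested probe set; dark dots are probe sets whose 5 arrays of each group do not overlap, and circles mark the 10 higher and 10 lower genes with the lowest p. The circled genes lie between -1.09 (Rprm) and 0.83 (Tnpo1), and none of the 9520 probe sets passed the test.

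Aagab had the lowest p of the comparison and stood lower after conditioning. Its protein binds the adaptins and helps assemble the clathrin adaptor complexes that sort membrane proteins into vesicles. The conditioned arrays read 8.51, 8.63, 8.72, 8.90 and 8.66, and the isoflurane arrays 9.32, 9.58, 9.27, 9.18 and 9.48. Every conditioned array lay below every isoflurane array. The log2 difference was -0.68 (SE 0.13, limma adjusted p = 0.0709). Baseline, pain and conditioning under isoflurane averaged 9.05, 9.01 and 9.01, between the 2 groups. Its limma adjusted p ranged from 0.029 to 0.97 over 21 alternatives, of which 3 passed the threshold: the deposited scaling (0.045), the filter at the 70th percentile (0.0347) and the replicate number as a block over 29 arrays (0.029), although the labels give that number no shared animal or day. It was 0.285 in a fit of the 10 arrays alone, 0.97 with the block in those 10 arrays and 0.336 with arrays centred on their medians.

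Insig1 had the lowest p among the higher genes. It encodes the endoplasmic reticulum protein that holds back SREBP, the transcription factor of cholesterol synthesis, when sterols are plentiful, and it is itself a target of SREBP. The conditioned arrays read 9.97, 9.99, 9.65, 9.86 and 9.76, and the isoflurane arrays 9.31, 9.50, 9.48, 9.45 and 9.39. The groups did not overlap, and the log2 difference was 0.42 (SE 0.09, limma adjusted p = 0.127). The conditioned mean of 9.84 was close to the baseline mean of 9.87, and the isoflurane mean of 9.42 was the lowest of the 5 groups, below pain at 9.67 and conditioning under isoflurane at 9.67. Its adjusted p was 0.934 in a fit of the 10 arrays alone.

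The genes that followed had adjusted p-values of 0.644 or more. Among the higher ones, Nfia, a transcription factor of glial development, read 7.96, 8.06, 7.69, 7.75 and 7.85 after conditioning and 7.30, 6.20, 6.80, 7.53 and 7.62 after isoflurane, a log2 difference of 0.77 (SE 0.20). The groups did not overlap, and isoflurane replicates 2 and 3 were the lowest arrays. Csad, the enzyme that makes the precursor of taurine, read 8.97, 8.72, 8.99, 8.87 and 8.85 against 8.54, 8.45, 8.67, 8.25 and 8.16, a log2 difference of 0.47 (SE 0.13). Its groups did not overlap either. Tnpo1, a nuclear import receptor, differed by 0.83 (SE 0.22), Gstt3, a glutathione transferase, by 0.49 (SE 0.12), Gda, the guanine deaminase that also acts on dendrite branching, by 0.52 (SE 0.15), and Dlgap4, a scaffold of the postsynaptic density, by 0.41 (SE 0.13). Fam89a differed by 0.49 (SE 0.13). The other Gda probe set had the opposite sign.

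Among the lower ones, Rprm had the largest difference of the genes whose groups did not overlap. Rprm is a p53-induced inhibitor of the cell cycle. It read 8.38, 7.66, 9.73, 9.53 and 9.76 after conditioning and 10.34, 10.18, 10.02, 9.87 and 10.09 after isoflurane, a log2 difference of -1.09 (SE 0.30, limma adjusted p = 0.644). Conditioning replicates 1 and 2 lay far below the other 3. Nemf, which takes part in clearing stalled peptides from ribosomes, read 9.14, 9.12, 8.77, 8.83 and 9.07 against 9.56, 9.58, 9.43, 9.43 and 9.36, a log2 difference of -0.49 (SE 0.13), with no overlap. Ythdf2, a reader of methylated adenosine in mRNA that speeds decay, differed by -0.68 (SE 0.19), and its isoflurane replicate 2 read 11.03 against 10.17 to 10.34 in the others. Borcs8, a subunit of the complex that moves lysosomes, differed by -0.59 (SE 0.16), Rab26, a GTPase of secretory vesicles, by -0.35 (SE 0.10), and Selenoh, a selenoprotein of the nucleus, by -0.30 (SE 0.08). Commd10 differed by -0.38 (SE 0.11), Tceal9 by -0.36 (SE 0.10) and Psmb7, a catalytic subunit of the proteasome, by -0.26 (SE 0.07). The other probe set of Borcs8 and that of Ythdf2 had the opposite sign.

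By the size of the difference among genes with no overlap, the highest were Nfia, Prrc2a and Pgap2. Prrc2a differed by 0.67 (SE 0.23) and Pgap2, an enzyme of lipid anchor remodelling, by 0.60 (SE 0.27); isoflurane replicate 3 of Pgap2 read 6.44 against 7.42 to 7.71 in the others, and without it the difference was 0.37. The levels by array show Aagab, Nemf and Rprm lower, and Insig1, Csad and Nfia higher, without overlap.

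**Figure D2:**
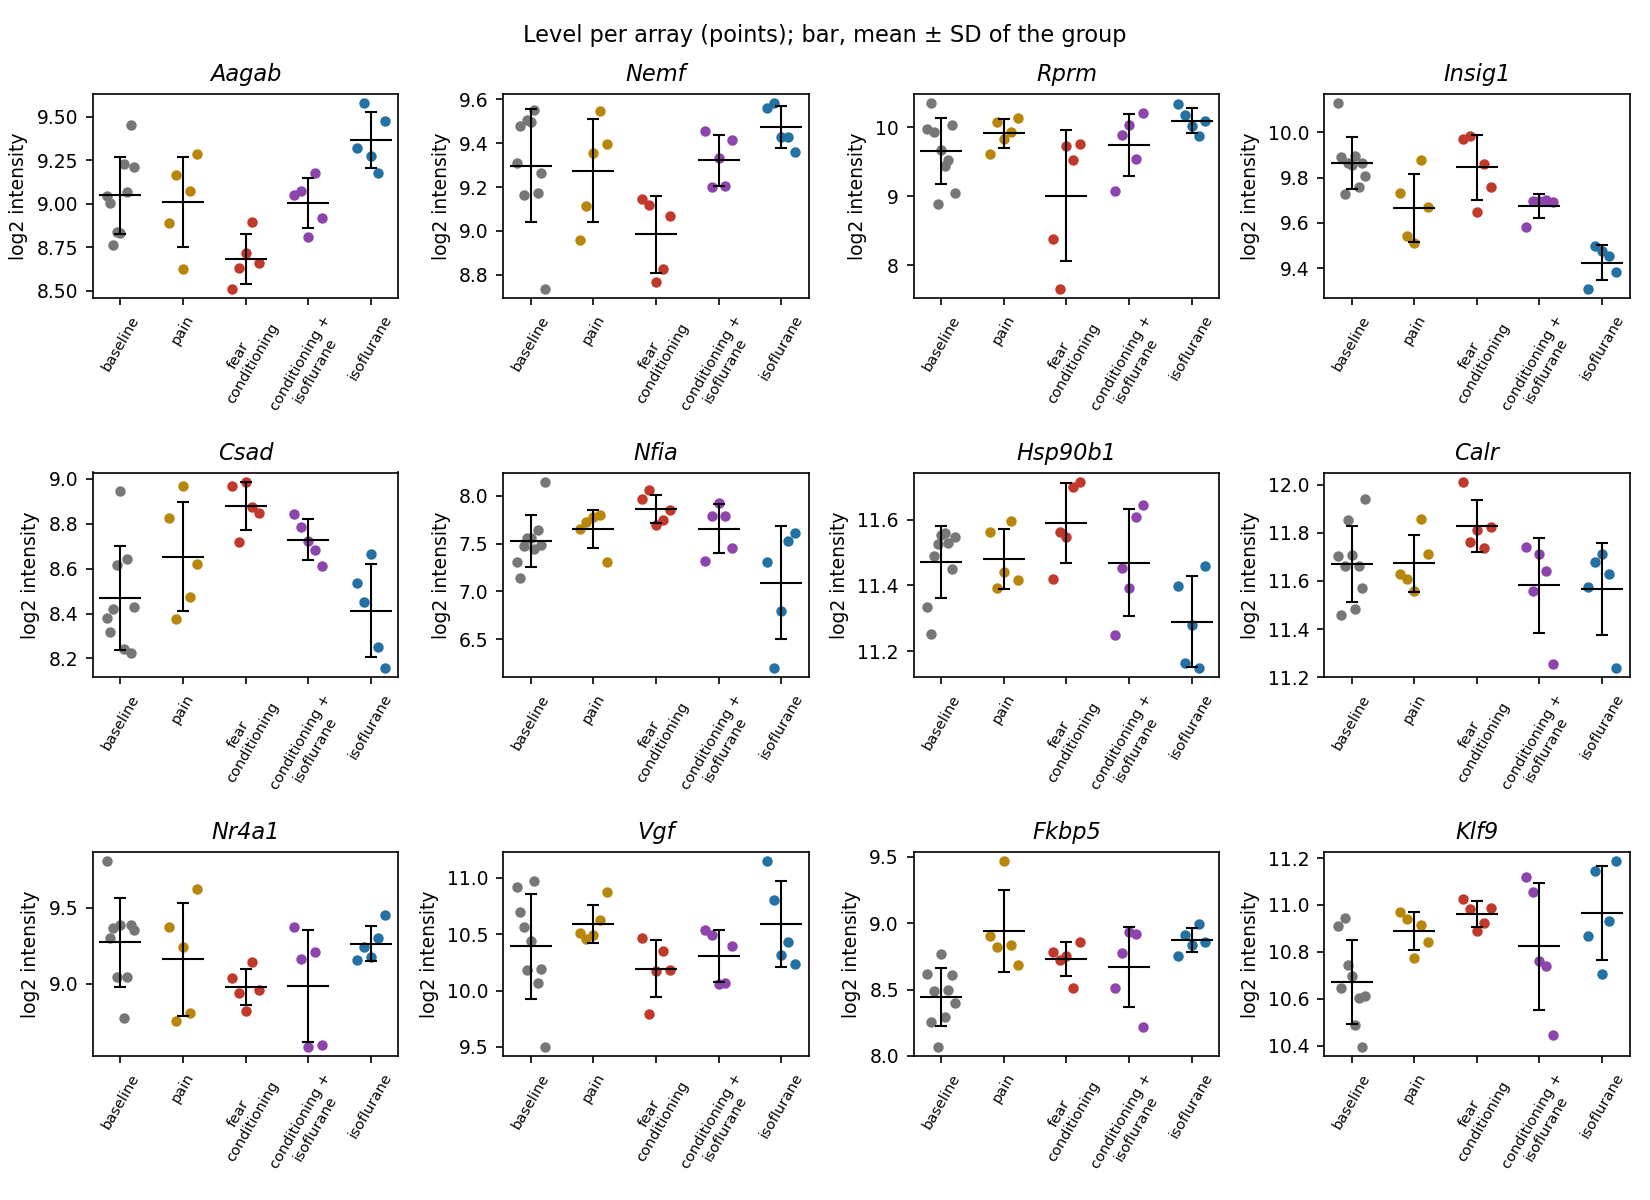
Log2 intensity of 12 genes (vertical axes, each with its own range) on every array of the 5 groups (horizontal axis); points are arrays and bars the group mean ± SD. The 5 conditioned and 5 isoflurane arrays do not overlap for Aagab, Nemf, Rprm, Insig1, Csad, Nfia, Calr and Nr4a1, and they overlap for Hsp90b1, Vgf, Fkbp5 and Klf9.

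Gene groups are described by their counts and medians beside those of all 7049 genes with 1 probe set each, of which 47.8% had a difference above 0 (median -0.0083), 2.34% stood higher and 2.99% lower at an unadjusted p under 0.05. No member of any of the 31 lists passed the adjusted threshold. Members of a list vary together between arrays, so a count is no test. Some genes are shared between lists, such as Cryab (chaperones and oligodendrocyte markers) and Drd1 (receptors and striatal markers). The counts of different lists are therefore not separate.

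Genes switched on by neuronal activity mostly stood lower after conditioning than after isoflurane. Of 17 activity-regulated effectors, 1 was above 0 and 16 below, with a median of -0.21, and 1 was lower at an unadjusted p under 0.05. That gene was Rasd1, a small GTPase induced by activity and by dexamethasone, which read 7.81, 7.03, 8.62, 8.79 and 8.14 after conditioning and 8.81, 8.63, 9.18, 8.36 and 8.66 after isoflurane. The 2 groups overlapped, and the log2 difference was -0.65 (SE 0.30, limma adjusted p = 0.924), or -0.39 without conditioning replicate 2. Vgf, a secreted neurotrophic precursor, read 10.47, 9.79, 10.17, 10.35 and 10.18 against 11.15, 10.80, 10.32, 10.43 and 10.24, a difference of -0.39 (SE 0.20). Plk2, an activity-induced kinase that weakens synapses, read 10.56, 10.29, 10.84, 10.42 and 10.53 against 10.89, 10.75, 11.03, 10.49 and 10.81, a difference of -0.27 (SE 0.13). Rgs2, a brake on G-protein signalling, differed by -0.22 (SE 0.13), Bdnf, the neurotrophin, by -0.39 (SE 0.26) and Arc, which removes AMPA receptors from synapses, by -0.21 (SE 0.19). The difference was -0.25 for Vgf without isoflurane replicate 1, -0.13 for Rgs2 without conditioning replicate 2 and -0.32 for Arc without conditioning replicate 4.

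The mean deviation of these effectors on each array, called the list score, was -0.266, -0.394, 0.002, 0.084 and -0.032 after conditioning and 0.209, 0.097, 0.097, 0.144 and 0.060 after isoflurane. Conditioning replicates 1 and 2 were the lowest, and replicate 4 lay within the isoflurane range. Without conditioning replicate 2 the median of the list was -0.17. The same list had a median of -0.14 against pain and -0.076 against conditioning under isoflurane, comparisons that share the conditioned arrays. Its median was -0.18 in conditioning minus baseline and 0.13 in isoflurane minus baseline, so by these medians the 2 groups lay on opposite sides of baseline.

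Immediate early transcription factors had a median of -0.13, with 4 of 17 above 0 and 1 lower at an unadjusted p under 0.05, Ier5l (-0.35, SE 0.15). Nr4a1, an orphan nuclear receptor, read 9.04, 8.94, 8.82, 9.14 and 8.96 after conditioning and 9.15, 9.24, 9.18, 9.30 and 9.45 after isoflurane. Its arrays did not overlap, and the difference was -0.29 (SE 0.17, limma adjusted p = 0.924). Fos differed by -0.37 with a 95% interval of -1.20 to 0.46, Egr1 by -0.22 (-0.49 to 0.05) and Egr4 by -0.33 (-0.73 to 0.07). Fos differed by -0.22 without conditioning replicate 1 and Egr1 by -0.12 without isoflurane replicate 5. The list median was -0.058 without conditioning replicate 5. The list of kinases, phosphatases and CREB linked to memory had a median of -0.011, with 20 of 44 above 0, and the median was 0.013 without conditioning replicate 2 and -0.058 with arrays centred on their medians.

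The promoters of effectors are shown because 4 of the 12 that matched the promoter table, Dusp1, Plk2, Scg2 and Vgf, hold the cyclic AMP response element, the site bound by CREB. The search took the letters TGACGTCA on both strands in the 250 bases before each gene start, from the RefSeq promoters of GRCr8. Of 33469 promoters, 531 held it (1.59%). Among the 5921 tested genes with a promoter, the nearer background for the effectors, it was in 175. Of these, 69 were above 0 and 106 below, with a median of -0.037. A match is a description of the letters and not of binding. The Vgf window is chr12:25277021-25277270 (minus strand) and the Plk2 window chr2:43702286-43702535 (plus strand), both written 5' to 3' along the gene with the element in capitals. Dusp1, a MAP kinase phosphatase, differed by -0.36 (SE 0.25) and Scg2, a granin of secretory granules, by -0.19 (SE 0.25).
Vgf: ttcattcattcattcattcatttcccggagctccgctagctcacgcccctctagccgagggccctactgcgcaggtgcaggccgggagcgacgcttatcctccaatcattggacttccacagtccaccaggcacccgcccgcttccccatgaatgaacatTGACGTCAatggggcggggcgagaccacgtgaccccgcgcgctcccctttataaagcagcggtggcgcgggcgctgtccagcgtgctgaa
Plk2: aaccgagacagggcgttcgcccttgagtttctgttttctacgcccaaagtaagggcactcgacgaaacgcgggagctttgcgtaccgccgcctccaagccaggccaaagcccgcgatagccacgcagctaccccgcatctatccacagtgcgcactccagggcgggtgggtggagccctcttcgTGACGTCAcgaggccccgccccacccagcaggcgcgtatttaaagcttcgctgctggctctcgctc

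Neuropeptides and markers of GABAergic interneurons also stood lower, and their median was nearer 0 without conditioning replicate 2. Of 20 genes 4 were above 0, the median was -0.25, and 2 were lower at an unadjusted p under 0.05. Without conditioning replicate 2 the median was -0.098. Adcyap1, the precursor of the neuropeptide PACAP, read 8.53, 7.29, 7.78, 8.63 and 7.84 after conditioning and 8.70, 8.87, 8.96, 8.29 and 9.07 after isoflurane (difference -0.77, SE 0.33, limma adjusted p = 0.924). Grp, the gastrin-releasing peptide made by amygdala projection neurons, read 8.06, 7.32, 8.69, 9.33 and 10.08 against 9.33, 9.43, 10.15, 9.80 and 9.05 (difference -0.86, SE 0.39). In both genes conditioning replicate 2 was the lowest of the 10 arrays, and the groups overlapped. Tac3, the neurokinin B precursor, differed by -0.94 (SE 0.49) and Dlx5, a homeobox gene of GABAergic neurons, by -0.35 (SE 0.22). Without conditioning replicate 2 the differences were -0.51 for Grp, -0.49 for Tac3 and -0.22 for Dlx5, and Dlx5 was also at -0.22 without conditioning replicate 1. The list scores were -0.171, -0.593, -0.032, 0.189 and -0.040 after conditioning and 0.270, 0.163, 0.278, -0.012 and -0.051 after isoflurane.

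Markers of neighbouring regions, whose share can vary with the dissection, are given beside these values. Striatal and central amygdala markers had a median of -0.081, with 4 of 14 tested (25 listed) above 0 and scores from -0.311 to 0.427 after conditioning and from -0.064 to 0.237 after isoflurane; the median was -0.024 without conditioning replicate 2 and -0.19 without conditioning replicate 4. Drd1, the D1 dopamine receptor, is on this list and differed by -0.47 (SE 0.20). Excitatory projection neuron markers had a median of -0.034, with 5 of 17 above 0. That median was -0.0028 without conditioning replicate 2, -0.065 with the deposited scaling and -0.11 with arrays centred on their medians. The part of these markers in the results above was not tested.

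Receptors for monoamines, acetylcholine, opioids and cannabinoids had a median of -0.096, with 7 of 18 above 0 and 3 lower at an unadjusted p under 0.05. Their scores did not overlap, from -0.143 to 0.003 after conditioning and from 0.016 to 0.139 after isoflurane. Of the 31 lists this was the only one without overlap. Oprl1, the nociceptin receptor, read 7.27, 7.87, 8.26, 8.38 and 7.98 against 8.50, 8.55, 8.45, 8.32 and 8.31 (difference -0.48, SE 0.16, limma adjusted p = 0.924, and -0.31 without conditioning replicate 1). Chrna4, a nicotinic receptor subunit, read 7.50, 7.16, 7.38, 7.26 and 7.51 against 7.73, 7.74, 7.87, 7.51 and 7.99, with no overlap (difference -0.40, SE 0.20). Cckbr, the cholecystokinin B receptor, differed by -0.36 (SE 0.18). The list median was -0.045 without isoflurane replicate 4.

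The next lists hold molecular targets of isoflurane among other genes. In each more genes stood below 0 than above, as they did over all 7049 genes, of which 47.8% were above 0. GABA-A receptor subunits with the scaffold gephyrin had a median of -0.15 with 2 of 9 above 0 and 7 below, and the 2 above 0 were those at an unadjusted p under 0.05. They were Gabrb1 (10.75, 10.99, 11.02, 11.18 and 11.06 against 10.62, 10.38, 10.71, 10.80 and 10.78; difference 0.34, SE 0.14) and Gabrg1 (0.38, SE 0.18, and 0.22 without isoflurane replicate 2). Gabrb2, a subunit of many adult receptors, differed by -0.19 (SE 0.11), Gphn by -0.20 (SE 0.14; -0.11 without isoflurane replicate 1, -0.13 without conditioning replicate 2) and Gabra4 by -0.050 (95% interval -0.47 to 0.37). The list median was -0.064 without isoflurane replicate 5. The scores of this list overlapped, from -0.173 to 0.119 after conditioning and from -0.215 to 0.148 after isoflurane. Glycine receptors, GABA-B receptors and leak potassium channels had a median of -0.076 with 3 of 9 above 0 (33.3%) and 6 below. No member of this list had an unadjusted p under 0.05. Kcnk3, a leak channel opened by volatile anaesthetics, differed by -0.42 (SE 0.24), or -0.20 without conditioning replicate 2. The median was -0.033 with the deposited scaling, -0.18 without isoflurane replicate 4 and -0.028 without isoflurane replicate 3.

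At the synapse, glutamate receptors had 7 of 15 genes above 0 (median -0.11, but 0.026 without conditioning replicate 1), and Grm3, a glutamate receptor found on astrocytes as well as neurons, differed by 0.38 (SE 0.18), or 0.22 without isoflurane replicate 3. Grin2a, an NMDA receptor subunit, differed by -0.53 (SE 0.38), with conditioning replicate 1 at 4.71 against 7.28 to 7.91 in the others, and by 0.029 without that array. Vesicle release and SNARE proteins had 12 of 24 above 0 (median -0.030, but 0.031 without conditioning replicate 2 and -0.080 with arrays centred on their medians). Vamp2, the synaptic vesicle SNARE, differed by -0.32 (SE 0.15), or -0.21 without conditioning replicate 2, and Syn2, a synapsin, by -0.28 (SE 0.13), with the opposite sign in its other probe set. Cplx2, a complexin, differed by 1.00 (SE 0.42), with isoflurane replicate 3 at 5.11 against 8.22 to 9.01 in the other isoflurane arrays, and by 0.30 without that array. Postsynaptic scaffolds had 13 of 20 above 0 (median 0.031, but -0.013 without conditioning replicate 1), and voltage-gated channels 17 of 33 (median 0.0062, but -0.021 without isoflurane replicate 1 and -0.018 with arrays centred on their medians). Matrix and adhesion genes had 20 of 32 above 0, with Sparc, a matrix glycoprotein, at 0.46 (SE 0.22). Their median of 0.030 was -0.0016 without isoflurane replicate 3, 0.063 without isoflurane replicate 4 and -0.0026 with arrays centred on their medians.

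Glial markers stood on the other side. Of 23 oligodendrocyte and myelin markers 22 were above 0, with a median of 0.22, and 5 were higher at an unadjusted p under 0.05; the median was 0.13 without conditioning replicate 5. Mobp, a myelin-associated basic protein, read 11.97, 12.50, 12.00, 12.07 and 12.72 after conditioning and 11.85, 11.37, 11.72, 12.06 and 11.85 after isoflurane (difference 0.48, SE 0.16, limma adjusted p = 0.924). Bcas1, which marks newly myelinating oligodendrocytes, read 10.93, 11.64, 10.81, 11.26 and 11.45 against 10.82, 10.34, 10.37, 10.93 and 10.84 (difference 0.56, SE 0.19). Conditioning replicates 2 and 5 were the highest arrays of both genes, and in each gene the groups overlapped. Car2, the carbonic anhydrase of oligodendrocytes, had 2 probe sets, with differences of 0.54 (SE 0.15) and 0.33 (SE 0.12), and Evi2a differed by 0.39 (SE 0.14), or 0.24 without conditioning replicate 5.

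The oligodendrocyte scores were -0.130, 0.244, -0.071, 0.125 and 0.436 after conditioning and -0.114, -0.257, -0.191, 0.139 and -0.182 after isoflurane, so 2 conditioned arrays lay below 0 and 1 isoflurane array above it. In bulk tissue, fewer cells of a type and less RNA per cell cannot be told apart. The list had a median of 0.24 against pain and 0.24 against conditioning under isoflurane, comparisons that share the conditioned arrays, and of -0.038 in isoflurane minus baseline.

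Of 27 astrocyte markers 23 were above 0 and 3 were higher at an unadjusted p under 0.05, with a median of 0.13 that was 0.051 without conditioning replicate 2 and 0.074 with arrays centred on their medians. Scores were 0.038, 0.323, 0.029, 0.004 and 0.017 after conditioning and -0.030, -0.281, -0.074, 0.135 and -0.161 after isoflurane, and isoflurane replicate 4 lay above 4 of the conditioned arrays. Ndrg2, an astrocyte-enriched gene, differed by 0.17 (SE 0.07), Slc1a3, the glutamate transporter GLAST, by 0.16 (SE 0.07) and Gfap, the astrocyte filament protein, by 0.30 (SE 0.15). Atp1b2, a sodium pump subunit, differed by 0.89 (SE 0.42), and its isoflurane replicate 2 read 6.33 against 9.34 to 9.43 in the other 4. Without that array Atp1b2 differed by 0.28 and Ndrg2 by 0.11, and without conditioning replicate 2 Slc1a3 differed by 0.095.

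Other non-neuronal markers were also mostly above 0. Choroid plexus and ependymal markers had 7 of 7 above 0 (19 listed) and a median of 0.28, led by the water channel Aqp1 (0.55, SE 0.26, and 0.33 without isoflurane replicate 1), with scores from -0.126 to 0.325 after conditioning and from -0.273 to -0.027 after isoflurane. Vascular markers had 11 of 13 above 0 (median 0.11, but 0.072 without isoflurane replicate 1 and 0.22 without isoflurane replicate 4). Microglial markers had 13 of 18 above 0, a median of 0.072 that was 0.0083 without conditioning replicate 2, and Csf1r, the survival receptor of microglia, at 0.32 (SE 0.14), or 0.21 without conditioning replicate 1. Red cell genes had 2 of 5 above 0 (median -0.019), and Hbb differed by -0.019 (95% interval -0.58 to 0.55).

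**Figure D3:**
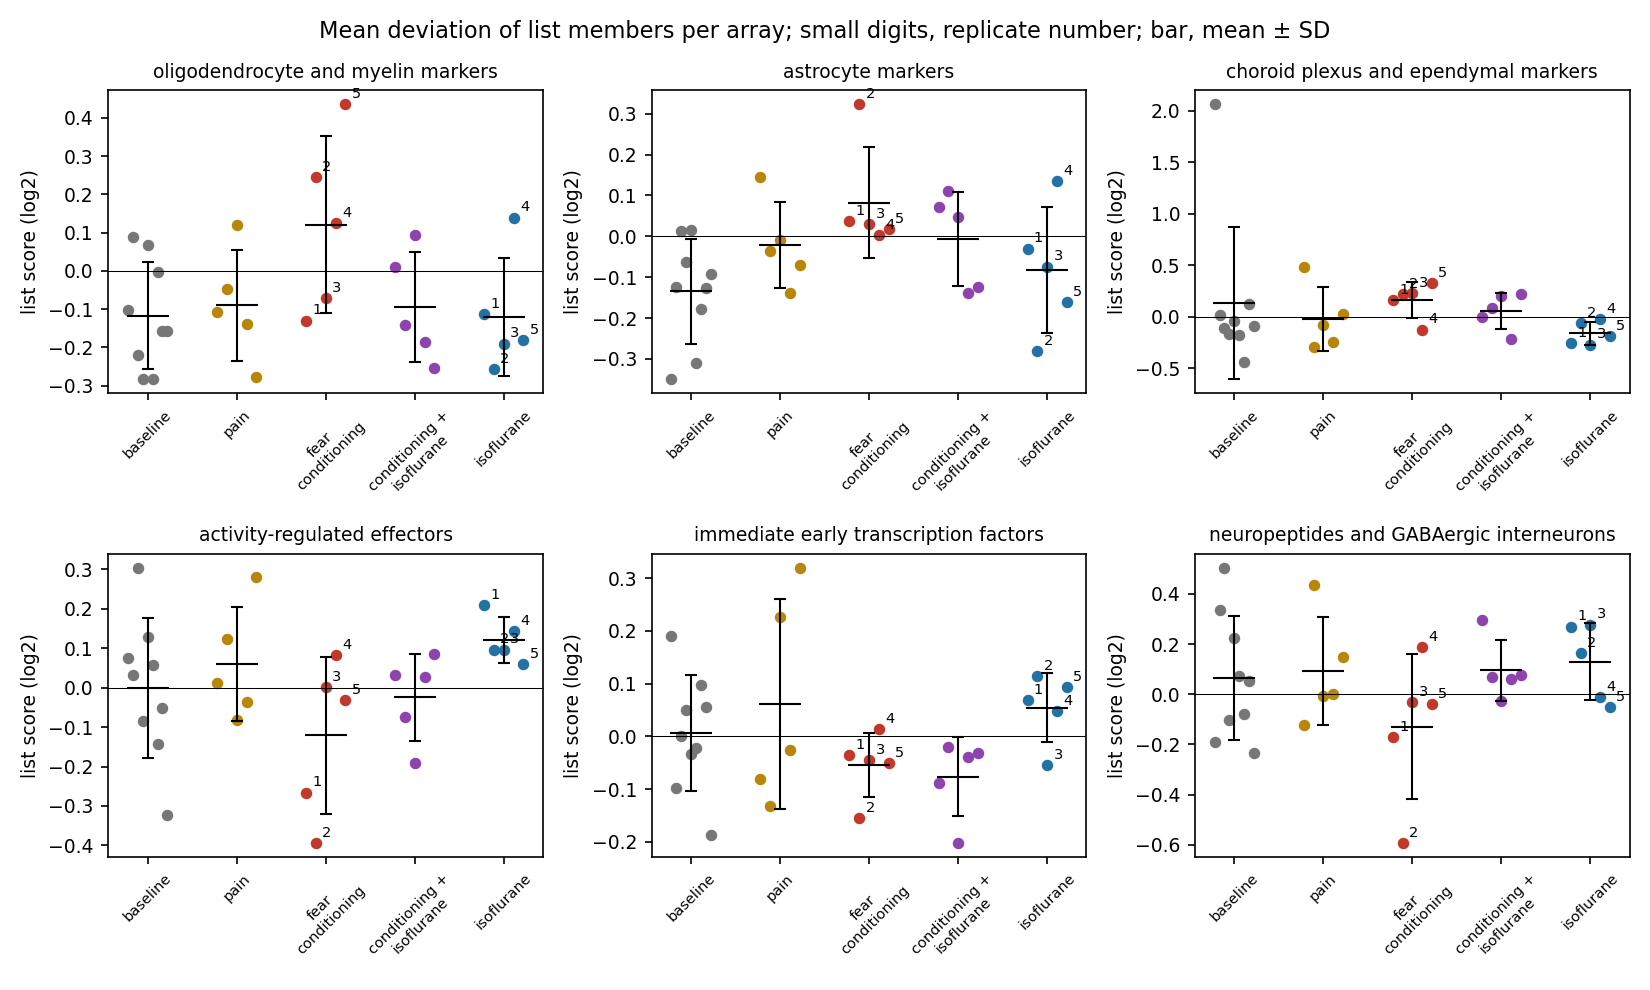
List score on each array (vertical axis, mean log2 deviation of the members, where 0 is the mean of the conditioned and isoflurane arrays) for 6 gene lists in the 5 groups (horizontal axis); points are arrays, bars the group mean ± SD, and digits the replicate number. Conditioning replicate 2 has the highest astrocyte score of its group (0.323) and the lowest effector (-0.394) and neuropeptide (-0.593) scores.

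Chaperones of the endoplasmic reticulum stood higher after conditioning in some members and not in others. Of 31 heat shock proteins and chaperones 22 were above 0 and 3 were higher at an unadjusted p under 0.05, with a median of 0.056. That median was 0.022 without conditioning replicate 5 and -0.0098 with arrays centred on their medians, under which the median over all tested probe sets was -0.034. Hsp90b1, the chaperone GRP94, read 11.42, 11.56, 11.55, 11.70 and 11.71 after conditioning and 11.40, 11.16, 11.28, 11.15 and 11.46 after isoflurane (difference 0.30, SE 0.08, limma adjusted p = 0.644). Only conditioning replicate 1 lay within the isoflurane range. Calr, the calcium-binding chaperone calreticulin, read 12.01, 11.76, 11.81, 11.74 and 11.82 against 11.57, 11.68, 11.71, 11.63 and 11.24, without overlap (difference 0.26, SE 0.10, limma adjusted p = 0.924). Cryab, a small heat shock protein that oligodendrocytes also make, differed by 0.39 (SE 0.16), and Herpud1, a part of the degradation machinery of the same organelle, by -0.43 (SE 0.21), or -0.28 without conditioning replicate 1. Hspa5, the chaperone BiP, was named after its values were seen; it averaged 11.39 (SD 0.27) and 11.12 (SD 0.12), a difference of 0.27 (SE 0.13).

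Cells induce such chaperones through a promoter element when unfolded protein builds up, which is why 3 promoters are shown; they were chosen after their values were seen. The ER stress response element was searched as CCAAT and CCACG separated by 9 bases, on both strands, in the same 250-base windows. It was in 22 of 33469 promoters (0.0657%), and in 13 of the 5921 tested genes with a promoter. Of the 27 listed chaperones with a promoter sequence, 5 held it, namely Calr, Canx, Hsp90b1, Hspa5 and Xbp1. Hsp90b1 lies at chr7:23012294-23012543 (minus strand), Calr at chr19:40213117-40213366 (plus strand) and Hspa5 at chr3:38452766-38453015 (plus strand), on GRCr8, with capitals marking the element; the Hsp90b1 window holds 2.
Hsp90b1: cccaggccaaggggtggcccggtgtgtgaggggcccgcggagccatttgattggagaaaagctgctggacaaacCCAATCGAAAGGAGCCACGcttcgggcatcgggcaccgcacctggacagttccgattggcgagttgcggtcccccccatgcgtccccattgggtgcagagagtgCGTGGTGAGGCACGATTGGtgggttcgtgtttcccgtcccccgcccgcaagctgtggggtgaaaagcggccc
Calr: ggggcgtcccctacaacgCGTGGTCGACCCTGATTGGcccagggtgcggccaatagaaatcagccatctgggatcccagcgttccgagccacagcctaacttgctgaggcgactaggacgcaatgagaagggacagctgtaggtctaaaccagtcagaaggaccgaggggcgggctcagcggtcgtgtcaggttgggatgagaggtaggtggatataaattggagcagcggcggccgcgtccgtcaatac
Hspa5: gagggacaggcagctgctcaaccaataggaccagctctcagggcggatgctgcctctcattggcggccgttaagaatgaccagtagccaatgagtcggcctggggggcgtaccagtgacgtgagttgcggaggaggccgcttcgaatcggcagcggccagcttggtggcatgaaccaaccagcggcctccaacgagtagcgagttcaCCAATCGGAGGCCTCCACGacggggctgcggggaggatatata

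Holding the element did not go with a common direction. Among the 13 tested genes with it 7 were above 0 and 6 below, with a median of 0.0092. Canx, the membrane-bound partner of calreticulin, differed by 0.037 (SE 0.09) and Xbp1, a transcription factor of the unfolded protein response, by -0.0068 (SE 0.12). Creld2, a secreted ER stress gene, stood lower (-0.34, SE 0.16), and so did Ankmy2 (-0.33, SE 0.11); both were named after their values were seen.

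Sterol genes around Insig1 were mixed. Of 30 genes of cholesterol synthesis and its regulation 19 were above 0, with a median of 0.052 that was 0.018 without isoflurane replicate 3 and 0.0043 with arrays centred on their medians. Insig2, the relative of Insig1 that SREBP does not induce, read 8.19, 8.17, 8.31, 8.63 and 8.57 after conditioning and 9.10, 8.75, 8.83, 9.23 and 8.45 after isoflurane, opposite in sign to Insig1 (difference -0.49, SE 0.19, limma adjusted p = 0.924). Cyp51, an enzyme of cholesterol synthesis, differed by 0.30 (SE 0.13) and Fads1, a fatty acid desaturase, by 0.38 (SE 0.15), with isoflurane replicate 5 of Fads1 at 9.96 against 10.73 to 10.78 in the others and a difference of 0.22 without it. The sterol regulatory element, searched as TCACNCCAC on both strands, was in 326 of the promoters (0.974%) and in 0 of the 23 listed sterol genes that matched the table. No match says only that these letters are not in the window. Among the 61 tested genes with it 25 were above 0 and 36 below.

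Stress hormone targets were split in direction. Glucocorticoid-responsive genes had 11 of 25 above 0 and a median of -0.014, with 0 at an unadjusted p under 0.05 in either direction by limma; the median was 0.030 with the deposited scaling and 0.036 without isoflurane replicate 4. Fkbp5, a co-chaperone induced by glucocorticoids, read 8.79, 8.73, 8.76, 8.52 and 8.86 after conditioning and 8.75, 8.91, 8.83, 9.00 and 8.86 after isoflurane, a difference of -0.14 (95% interval -0.43 to 0.15), or -0.090 without conditioning replicate 4. Klf9, a corticosterone-induced transcription factor, differed by -0.0062 (-0.23 to 0.22), and Nr3c1, the glucocorticoid receptor, by -0.069 (-0.29 to 0.15). Both treated groups averaged above baseline for Fkbp5 (8.73 and 8.87 against 8.44) and Klf9 (10.96 and 10.97 against 10.67). Zfp644 differed by -0.22 (-0.51 to 0.08), -0.088 without isoflurane replicate 2 and -0.33 without isoflurane replicate 1.

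Circadian clock genes had 0 of 12 above 0, with differences from -0.18 (Cry2, which ran from -0.30 to -0.053 when 1 array was left out) to -0.0069 (Hlf) and a median of -0.065; none had an unadjusted p under 0.05, and the median was -0.12 without isoflurane replicate 2 and -0.031 without isoflurane replicate 1. Genes of oxidative phosphorylation had 15 of 60 above 0 and a median of -0.044, which was -0.020 without isoflurane replicate 2 and -0.11 with arrays centred on their medians. Ndufs3 of complex I differed by -0.22 (SE 0.09) and Uqcrfs1, the Rieske protein of complex III, by -0.19 (SE 0.08). Ribosomal proteins (25 of 39 above 0, median 0.010) and glycolysis genes (15 of 28, median 0.0065) had medians below 0 with arrays centred on their medians, at -0.021 and -0.025. Slc2a3, the neuronal glucose transporter, differed by -0.40 (SE 0.14), and its other probe set had the opposite sign. Antioxidant genes had 21 of 41 above 0 (median 0.0047, but -0.031 without conditioning replicate 1 and -0.028 with arrays centred on their medians). Cytokine and inflammation genes had 9 of 10 tested (41 listed) above 0, none at an unadjusted p under 0.05. Their median was 0.045, but 0.015 without conditioning replicate 2. Antigen presentation and interferon genes had 9 of 13 above 0 (0.055, but 0.012 without isoflurane replicate 1). Hypothalamic and thalamic markers had 5 of 8 (0.080, but 0.020 without isoflurane replicate 3).

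**Figure D4:**
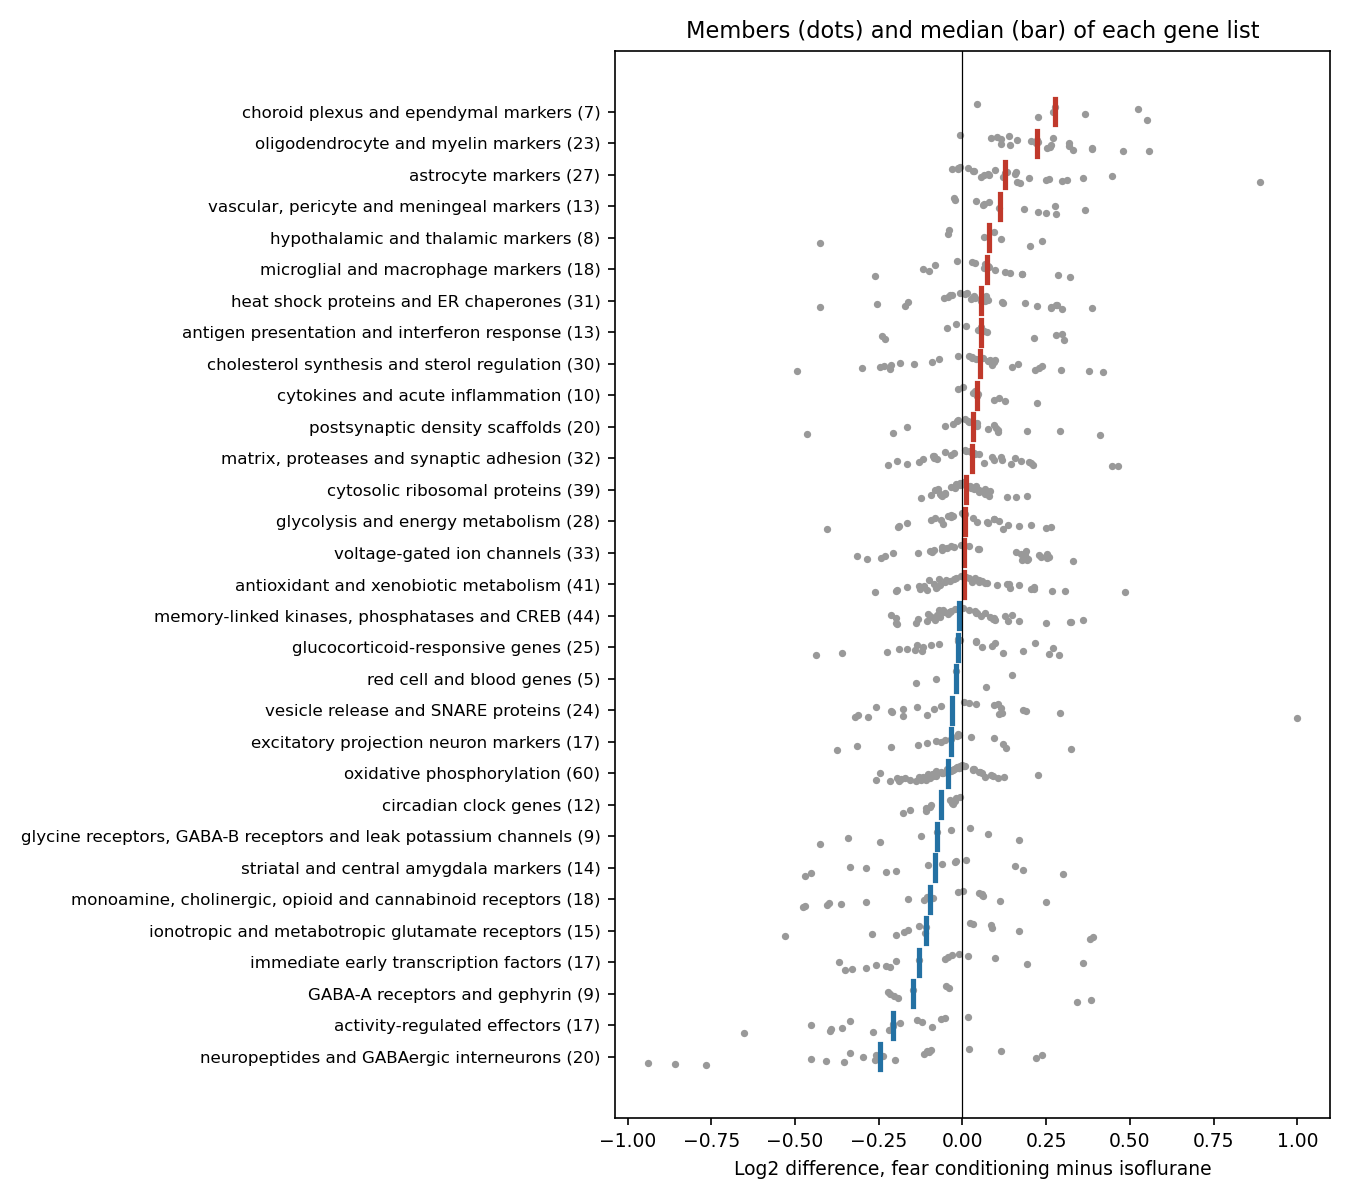
Log2 difference of fear conditioning minus isoflurane (horizontal axis) for the members (grey dots) and the median (bar) of 31 gene lists (vertical axis, number of tested genes in parentheses), ordered by median. Medians run from -0.25 for neuropeptides and interneurons to 0.28 for choroid plexus markers, and no member passed the test.

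The other groups place the conditioned and isoflurane levels. Over the 494 probe sets at an unadjusted p under 0.05, the baseline mean was nearer the isoflurane mean in 323 and nearer the conditioned mean in 171 (34.6%, against 42.9% of all 9520). The pain mean was nearer the isoflurane mean in 322 and nearer the conditioned mean in 172 (34.8%, against 44.9% of all). Conditioning under isoflurane was nearer isoflurane in 259 and nearer conditioning in 235 (47.6%, against 49.7%). The probe sets were chosen on the difference between conditioning and isoflurane, so these counts are a description. The conditioned arrays were also compared with each of these treated groups. Conditioning minus pain gave 0 calls (0%, lowest limma adjusted p 0.0937, 861 at an unadjusted p under 0.05). Pain replicate 3 had a median deposited signal of 291.8, against 210.2 to 249.1 on the other arrays of the study. It had 131 probe sets below the floor of 16, against 1029 to 1704 on the others. No pain array was left out in any alternative, and the part of this array in the pain values was not tested. Conditioning minus conditioning under isoflurane gave 0 calls (0%, lowest limma adjusted p 0.999). It had 351 at an unadjusted p under 0.05, against the same 476. Conditioning minus pain is also the difference between the effects of conditioning and pain each set against isoflurane.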

How the data were processed

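The authors deposited 1 processed signal per probe set and array, a linear intensity scaled so that the mean without the lowest and highest 2% lies between 500.08 and 500.12 on each array; the software is not given in the sources used here. Of 15923 probe sets 57 controls were left out; of the remaining 15866, 12783 carry 1 gene symbol, 312 several and 2771 none, and only probe sets with 1 symbol are named. Intensities were quantile normalized over the 29 arrays, floored at 16 and converted to log2, and 9520 probe sets with a mean at or above the 40th percentile (7.26) were kept. All 29 arrays were fitted with limma 3.58.1 (R 4.3.3) with 1 mean per group and an intensity trend, and p-values were adjusted by Benjamini-Hochberg; the script was tested on simulated data. The members and gene lists were chosen with earlier results of these data known. Genes are named by rule: the 10 higher and 10 lower with the lowest p, up to 4 members per list with the lowest p, 11 textbook or earlier-named genes, and the 3 higher and 3 lower largest differences without overlap; any other gene is a list member or promoter match, named after its values were seen. Each listed gene is represented by its probe set with the highest mean. Promoters were found for 114 of 147 named genes and 5921 of 7049 tested genes. The number of arrays limits the precision. Scaling, filter, floor, variance model, a replicate block and leaving out each of the 10 conditioned and isoflurane arrays were tried as alternatives.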

Additional observations from a re-analysis of the deposited data

Results flagged for a closer look

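In each group of 5 arrays the highest and lowest value of every named gene and list score was compared with the rest by Dixon's gap criterion, which marks about 1 group in 20 by chance; it marked 20 of 364 groups. Isoflurane replicate 2 was set apart for Ythdf2 (11.03, others 10.17 to 10.34), Cckbr (9.56, others 9.06 to 9.20), Slc2a3 (10.50, others 9.87 to 10.02), Atp1b2 (6.33, others 9.34 to 9.43), the ribosomal score (0.072, others -0.037 to -0.014) and the glycolysis score (-0.086, others 0.004 to 0.026). Isoflurane replicate 3 was set apart for Cplx2 (5.11, others 8.22 to 9.01), Cacna1b (8.53, others 9.08 to 9.27) and Pgap2 (6.44, others 7.42 to 7.71). Isoflurane replicate 5 was set apart for Fads1 (9.96, others 10.73 to 10.78), the vesicle score (0.182, others -0.061 to -0.023) and the voltage-gated channel score (0.149, others -0.075 to -0.043). Isoflurane replicate 4 was low for Camk1 (8.60, others 9.26 to 9.44) and isoflurane replicate 1 for Cacnb2 (8.64, others 8.99 to 9.09). Conditioning replicate 2 was set apart for Selenoh (9.88, others 10.23 to 10.33), Vcam1 (10.63, others 10.15 to 10.24), the vesicle score (-0.253, others 0.022 to 0.094) and the astrocyte score (0.323, others 0.004 to 0.038). Conditioning replicate 1 was low for Grin2a (4.71, others 7.28 to 7.91) and conditioning replicate 3 high for Camk1 (9.33, others 8.84 to 8.96).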

How the results depend on the processing

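Of the 148 probe sets named by the rule 139 kept their sign under every alternative run. Conditioning minus isoflurane gave 1 call, Aagab, with the deposited scaling, with the filter at the 70th percentile and with the replicate block over 29 arrays. It gave 0 when any 1 of the 10 arrays was left out. The labels tie no replicate number to a shared animal or day: the correlations of same-numbered arrays ran from -0.2 to 0.043, none matched its own number best, and with the block on the 10 arrays the lowest adjusted p was 0.97. Higher probe sets at an unadjusted p under 0.05 numbered 116 with arrays centred on their medians, 383 without a filter and 133 at the 70th percentile; lower ones numbered 401 and 149 in the last 2 settings. Non-overlapping probe sets numbered 42 higher without a filter, and 10 higher and 19 lower at the 70th percentile. Leaving out 1 array gave 122 to 357 higher and 169 to 377 lower. Conditioning minus pain gave 2 calls with no intensity trend, and 0 to 1 when 1 array was left out, the 1 without conditioning replicate 5. The filter changes how many probe sets are tested; the cause of the other shifts was not tested. For 9 genes the sign reversed when 1 array was left out, and their differences then ran from -0.19 to 0.10 for Hbb, -0.25 to 0.074 for Gabra4, -0.072 to 0.049 for Klf9, -0.11 to 0.016 for Nr3c1, -0.26 to 0.026 for Bmal1, -0.77 to 0.029 for Grin2a, -0.011 to 0.13 for Bpgm, -0.010 to 0.20 for Nfkb1 and -0.036 to 0.23 for Calb2. The precision is that of 5 arrays a group.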
